A study of Caenorhabditis elegans with 2 samples.

Results

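The genes described here encode DNA repair proteins and the damage checkpoint of Caenorhabditis elegans. They were taken as a list of 45 names, of which 44 matched a protein-coding gene by symbol in the WBcel235 gene models. The name rad-5 had no gene of its own there; it is an older name of clk-2, which is in the list. The 44 genes were set against all 19973 protein-coding genes of the 6 nuclear chromosomes. A gene was counted as having a promoter summit when the summit of a peak lay from 1000 bp upstream to 200 bp downstream of its annotated 5′ end.

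The data are chromatin immunoprecipitation followed by sequencing (ChIP-seq) of the zinc finger protein MCD-1, in 2 biological replicates of whole young adults, 65 hours old, grown from L1 larvae starved after bleaching. Both replicates are of strain RW12215, in which CRISPR editing inserted a TY1, EGFP and 3xFLAG tag at the endogenous mcd-1 gene on chromosome II, and DNA was recovered with an antibody to GFP. They form 1 group, so there is no comparison between conditions, and no untagged or input sample was analysed here. The peak lists carry no read counts, so the depth behind each value is unknown. Whole worms hold germline and soma together, and strong binding in few cells cannot be told apart from weak binding in many. The tagged locus itself carried a peak at -38 bp from the mcd-1 5′ end. Its signal was 2.32 and 2.38 times the median conservative peak in replicates 1 and 2. Negative positions are upstream throughout.

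DNA repair is divided among pathways that act on different lesions. Mismatch repair removes replication errors, base and nucleotide excision repair replace damaged bases and bulky adducts, and translesion polymerases copy past lesions that remain. Double-strand breaks are joined by homologous recombination or by end joining, while checkpoint kinases halt the cycle. In C. elegans much of this machinery is known for its work in the germline, where meiotic breaks are repaired and damaged cells can be removed by apoptosis.

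Of the 44 repair and checkpoint genes, 16 had a promoter summit in the conservative list (36.4%), the authors' list of peaks found reproducible between the replicates. This compares with 13.2% of all protein-coding genes (2636 of 19973). Genes with a symbol stood at 16.7%. The list is rich in genes of chromosome III, which has 17 of the 44 members and where 20.6% of all genes had a summit. The shares of the others were 20.5% on I, 13.1% on both II and IV, 8.29% on V and 7.54% on X. Giving each member the share of its own chromosome gives a mean of 17%. Since a summit counts for every window that holds it, the count also depends on neighbours: 10 of 44 members (22.7%) remained when each summit was given only to the nearest 5′ end, against 9.97% of all genes. These shares are descriptions; the list was chosen with earlier results of these data known, and no test was made of it.

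In 8 of the 9 pathway classes at least 1 gene had a summit, and the class with none was mismatch repair, at 0 of 4. Homologous recombination had 4 of 9 genes, the damage checkpoint 3 of 6, and end joining 2 of 4. The RecQ helicases with SMC-5 and SMC-6 had 2 of 4, nucleotide excision repair 2 of 5, and translesion synthesis 1 of 3. Crosslink and quadruplex repair had 1 of 4, and base excision repair with PARP had 1 of 5. The classes hold 3 to 9 genes each, too few to rank them by these shares.

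**Figure D1:**
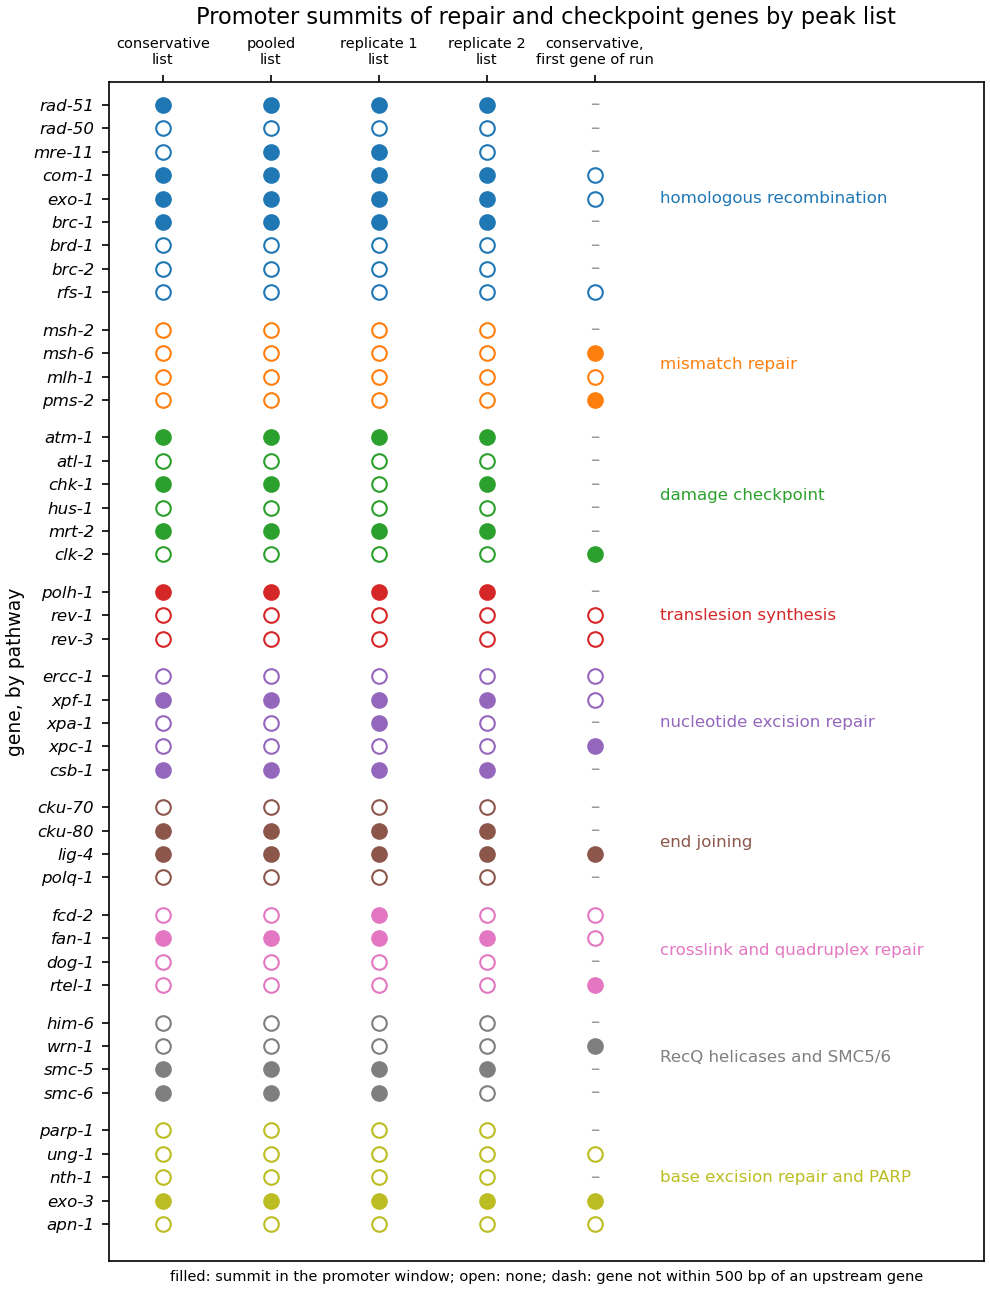
Presence of a promoter summit for the 44 genes, in rows by pathway, in each of the authors' 4 thresholded peak lists (columns); the last column marks whether the first gene of the run that holds a member had a conservative summit. Filled circles mark a summit, open circles none, and a dash a gene not within 500 bp of an upstream gene. All 4 mismatch repair rows are open in the 4 list columns, while msh-6 and pms-2 are filled in the last.

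Signals are given as multiples of the replicate's own median over the conservative peaks, so that 1 is a typical peak. The 16 members with a summit had a median of 2.68 times that peak, with a range of 0.586 to 9.55, and all genes with a promoter summit had a median of 1.45 and a range of 0.471 to 42.6. Of the 16, 13 lay above 1 and 12 above the 1.45 of all genes with a promoter summit, whose lower quartile was 0.838. By the deposited signal value 11 of the 16 peaks stood in the strongest 25% of the 3903 conservative peaks. That share is not 25% for promoter peaks, which are stronger. All genes with a promoter summit had a median signal value of 224, against 148 over the conservative peaks and 421 for the members. Their upper quartile was 497, while the peak ranked 971 of 3903 had 288. More than 25% of all genes with a promoter summit therefore stood in that strongest part. Most of them also lay above 1, as their median multiple was 1.45. The exact shares of all genes above 1 or in the strongest 25% were not counted. The replicates lay close together for most of the genes: the SD was 13.7% of the mean at the median and 46.8% at most.

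The signal at 4 genes, brc-1, polh-1, csb-1 and atm-1, stood above that of the other members. The peak upstream of brc-1, which encodes the BRCA1 homologue, gave 8.45 and 10.7 times the median peak in replicates 1 and 2 (mean 9.55 ± 1.56, SD, n = 2), and ranked 115 of 3903. This peak lay at chrIII:3862933-3863297 (ce11), with its summit at -140 bp from the 5′ end of brc-1 (WBGene00000264). At polh-1, the gene of the translesion polymerase eta, the replicates gave 8.85 and 7.53 (mean 8.19 ± 0.935), from a peak at chrIII:1950232-1950611 with its summit at -150 bp. At csb-1, the homologue of Cockayne syndrome B in transcription-coupled repair, they gave 7.40 and 6.74 (mean 7.07 ± 0.469), with the summit at -422 bp. At the checkpoint kinase gene atm-1 they gave 6.58 and 5.29 (mean 5.93 ± 0.914), with the summit at -374 bp. In both replicates each of the 4 was above all 12 other members, while their own ranges overlapped in part: replicate 1 placed polh-1 first and replicate 2 placed brc-1 first. Only brc-1 among them had the nearest 5′ end to its summit. The summit of polh-1 lay nearer to the ribosomal protein gene rps-22, on the opposite strand, that of csb-1 nearer to F53H4.4, and that of atm-1 nearer to F56C11.3. Which gene of such a pair a peak belongs to cannot be told apart from these lists.

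The sequences under 5 of the 6 strongest summits are given on each gene's own strand from the RefSeq WBcel235 genome, to show the short elements that recur at these sites. Capitals mark the element GAGCG, the shorter element TTGCA, the cell cycle homology region TTTGAA and the GC box GGGCGG, each on either strand, and the summit is base 51, except in csb-1, where it is base 47, and in lig-4, where it is base 10. Annotated untranslated sequence was left out at the edges, 4 bases in csb-1 and 41 in lig-4, whose stretch is therefore 60 bases long.
brc-1 (chrIII:3863058-3863158, minus strand): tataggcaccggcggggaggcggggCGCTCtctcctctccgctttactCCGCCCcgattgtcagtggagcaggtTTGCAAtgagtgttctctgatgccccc
polh-1 (chrIII:1950369-1950469, minus strand): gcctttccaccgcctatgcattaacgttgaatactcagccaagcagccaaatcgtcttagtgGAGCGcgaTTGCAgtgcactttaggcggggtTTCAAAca
csb-1 (chrX:15866290-15866386, minus strand): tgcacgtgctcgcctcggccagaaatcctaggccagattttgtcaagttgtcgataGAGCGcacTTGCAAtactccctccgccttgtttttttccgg
smc-5 (chrII:5061923-5062023, plus strand): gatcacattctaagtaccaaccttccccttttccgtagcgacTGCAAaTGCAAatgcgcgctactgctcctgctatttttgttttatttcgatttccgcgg
lig-4 (chrIII:7520846-7520905, plus strand): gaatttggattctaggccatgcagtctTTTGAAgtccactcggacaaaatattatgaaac

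The element GAGCG, read on both strands, was present within 50 bp of the summit at 10 of the 16 member summits (62.5%), against 764 of the 2102 promoter-proximal conservative summits (36.3%). GAGCG was chosen with earlier results of these data known, and the summits were not matched for signal or base composition. The median share of G and C bases was 49.5% at member summits and 47.5% at all such summits. The 10 were those of rad-51, com-1, exo-1, brc-1, atm-1, chk-1, polh-1, xpf-1, csb-1 and fan-1. Within 100 bp the member count was 11, against 44.5% of all such summits, and within 25 bp it was again 10, against 24.3%. Its nearest copy lay within 20 bp of the summit in 9 of these 10 genes, and in 60.5% of the 764. The 10 genes with it had a median of 3.01 times the median peak and the 6 without it a median of 1.5, with ranges of 0.586 to 9.55 and 0.763 to 4.05 that overlap widely. In csb-1 and polh-1 the element TTGCA follows GAGCG after 3 other bases. This spaced pair was searched for, on both strands, only after these sequences had been read. It was found at 4 of 16 member summits (com-1, atm-1, polh-1 and csb-1), against 8.47% of all promoter-proximal summits. Its presence at polh-1 and csb-1 was fixed in advance, because the pair was defined from them. Only com-1 and atm-1 were found by the search. TTGCA alone, read on both strands and so also inside that pair, was at 7 of 16, against 32.8%. Within 100 bp it was at 8 of 16, against 48.4%, and within 25 bp at 4 of 16, against 19.8%.

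The cell cycle elements were read in the same windows. The sequence TTTGAA, the element that LIN-54 of the DRM complex recognises, was present at 5 of 16 member summits (mrt-2, polh-1, lig-4, fan-1 and exo-3), against 20.6% of all promoter-proximal summits, and its variant TTCGAA at 2 of 16, chk-1 and cku-80, against 6.37%. The E2F core TTTNNCGC was at 3 of 16 (com-1, chk-1 and cku-80), against 14.7%. The GC box was at 1 of 16, against 6.95%. The sequences TATAAA and TTTCAG were at 0 of 16, against 3.71% and 9.42%. Within 100 bp of the summit TATAAA was at 5 of 16, against 12.9%, and TTTCAG at 6 of 16, against 24.6%. In that wider window TTTGAA was at 11 of 16 (against 39.2%), TTCGAA at 6 of 16 (against 15.1%) and the E2F core at 7 of 16 (against 27.2%). All were read on both strands, and a match says only that the letters are there.

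**Figure D2:**
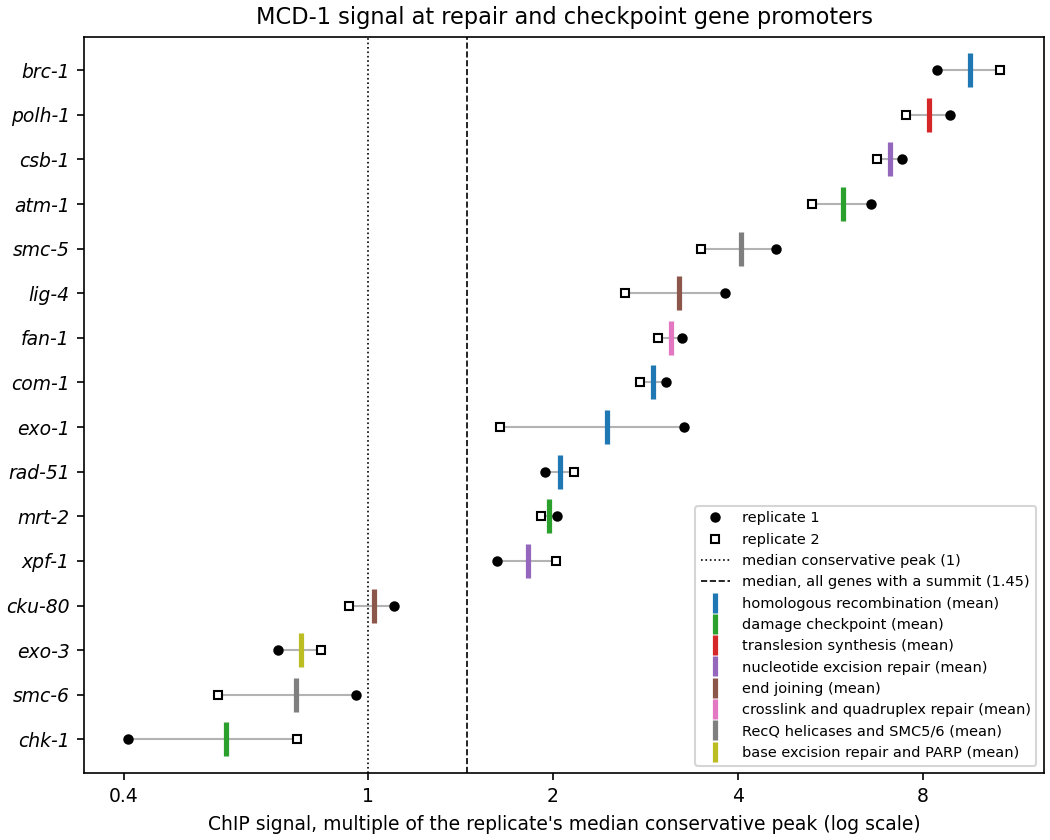
ChIP signal at the 16 repair and checkpoint genes with a conservative promoter summit, as multiples of each replicate's median conservative peak (log axis). Circles are replicate 1, squares replicate 2 and coloured bars their mean, coloured by pathway. The 4 genes from atm-1 to brc-1 lie above 5 times in both replicates, and exo-3, smc-6 and chk-1 lie below the dotted line at 1.

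Among genes of homologous recombination the signals ran from brc-1 down to rad-51. The resection gene com-1, the CtIP homologue, gave 3.06 and 2.77 times the median peak (mean 2.91 ± 0.200, n = 2), with its summit at -361 bp from the 5′ end, inside an intron of fbxb-87. The exonuclease gene exo-1 gave 3.27 and 1.64 (mean 2.45 ± 1.15), from a summit 97 bp downstream of its 5′ end, a spread of 46.8% of its mean and the largest of the 16 in those terms. The recombinase gene rad-51 itself gave 1.94 and 2.16 (mean 2.05 ± 0.153), from a peak at 10284582 to 10284805 on chromosome IV, at -456 bp, in the window of no other gene. The members of the class without a conservative summit were rad-50, mre-11, brd-1, brc-2 and rfs-1. The conservative list therefore had a summit in the promoter window of brc-1 but not in that of brd-1, whose protein is the partner of BRC-1 and which held summits only inside the gene.

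In the damage checkpoint atm-1 was followed by mrt-2, a subunit of the checkpoint clamp also needed for telomere maintenance. It gave 2.03 and 1.91 (mean 1.97 ± 0.0830), with the summit 158 bp downstream of the 5′ end, in its 5′ untranslated region. The kinase gene chk-1 gave 0.406 and 0.765 (mean 0.586 ± 0.254), the weakest of the 16, from a summit at -248 bp, and its peak was not in replicate 1's own thresholded list. No conservative summit was found at atl-1, which encodes the ATR kinase upstream of CHK-1, at hus-1, a clamp subunit, or at clk-2.

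End joining was represented by lig-4 and cku-80. The ligase gene lig-4 gave 3.81 and 2.62 (mean 3.21 ± 0.845), and the Ku subunit gene cku-80 gave 1.10 and 0.931 (mean 1.02 ± 0.123), close to a typical peak, from a summit at -309 bp. No conservative summit was found at cku-70, the other Ku subunit, or at polq-1, the polymerase theta of alternative end joining. The lig-4 summit lay at -608 bp from lig-4, with the small gene C07H6.2 between them and cux-7 starting 10 bp away on the other strand. On that strand cux-7 is followed by clk-2, whose 5′ end lies 2331 bp from the summit and 104 bp past the end of cux-7. A single peak thus stood at the head of both runs of genes, the one that holds lig-4 and the one that holds clk-2.

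**Figure D3:**
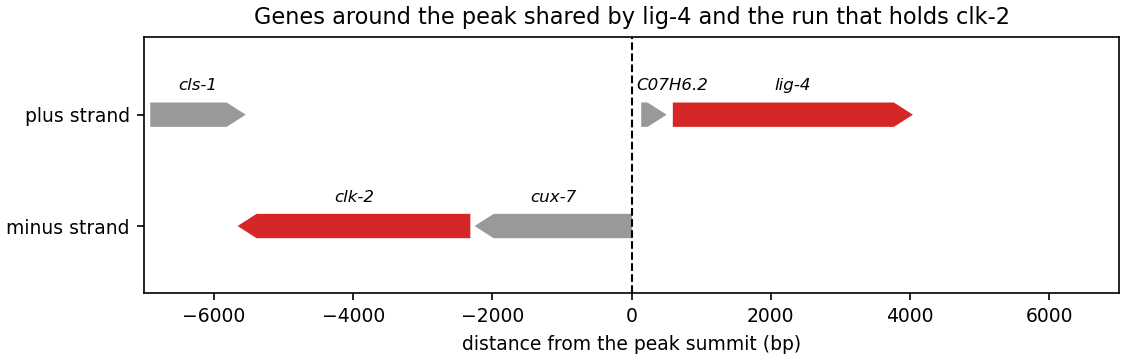
Protein-coding genes within 7000 bp of the summit of the peak at lig-4 on chromosome III, drawn to scale by strand, with distance from the summit on the horizontal axis and repair and checkpoint genes in red. The summit (dashed line) lies between cux-7, 10 bp away, and C07H6.2, 154 bp away, with clk-2 and lig-4 next in line on either side.

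The other classes each gave 1 or 2 genes. In nucleotide excision repair csb-1 was followed by the endonuclease gene xpf-1, at 1.62 and 2.02 (mean 1.82 ± 0.283), in an intron of kel-1 and nearer to the threonyl-tRNA synthetase gene tars-1. Its partner gene ercc-1 and the damage recognition genes xpa-1 and xpc-1 had none. In crosslink repair the nuclease gene fan-1 gave 3.25 and 2.96 (mean 3.11 ± 0.209), with the summit 127 bp downstream of the 5′ end, in its 5′ untranslated region, and fcd-2, dog-1 and rtel-1 had none. The cohesin-like gene smc-5 gave 4.61 and 3.49 (mean 4.05 ± 0.790) and its partner smc-6 gave 0.956 and 0.569 (mean 0.763 ± 0.274); the replicate values of the pair do not overlap. The helicase genes him-6 and wrn-1 had none. In base excision repair the AP endonuclease gene exo-3 was the only one with a summit, and had a pair of them. The stronger, at -967 bp and nearer to rbm-3.1, gave 0.713 and 0.838 (mean 0.776 ± 0.0885), and the other, 32 bp downstream, gave 0.827 and 0.641 (mean 0.734 ± 0.132). No conservative summit was found at apn-1, ung-1, nth-1 or parp-1, nor at the translesion genes rev-1 and rev-3.

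Summits of the members lay upstream in 13 of 16 cases, at a median of -335 bp from the 5′ end. All genes with a promoter summit had a median of -236 bp and an upper quartile of -123 bp, so most of their summits lay upstream too. Of the 16 summits, 11 were intergenic, 3 lay in the 5′ untranslated region of the member (exo-1, mrt-2 and fan-1) and 2 in an intron of an upstream gene. Of the 16 members, 8 (50%) shared their strongest summit with the window of another gene, against 51.8% of all genes with a summit, and in 7 of the 8 a partner lay on the opposite strand. Intergenic, untranslated and intronic places, and the strand of partners, were not counted over all genes. For smc-6, at -631 bp, the nearer gene was the phytochelatin synthase gene pcs-1.

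**Figure D4:**
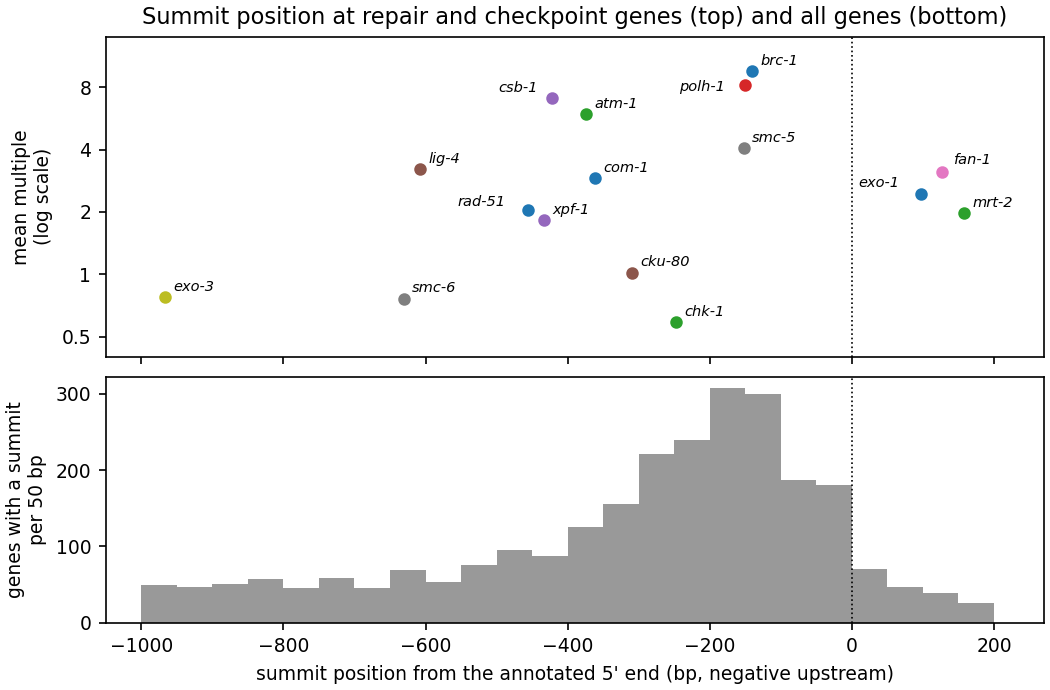
Top, summit position from the annotated 5′ end (bp, negative upstream) against the mean multiple of the median peak (log axis, n = 2) for the 16 repair and checkpoint genes with a conservative summit; bottom, summit positions of all 2636 genes with one, in bins of 50 bp. The members spread from -967 bp at exo-3 to 158 bp at mrt-2, and 3 of them lie past the 5′ end.

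The threshold fell among the members rather than beside them. The authors limited the list to an irreproducible discovery rate (IDR) of 0.01, a score of 830, where the IDR is the expected share of irreproducible peaks at that rank or stronger. The peak of chk-1 had a score of 832, just inside, and the promoter of the BRCA2 homologue gene brc-2 had a ranked peak with a score of 816 and an IDR of 0.0108, just outside. There the replicates gave 0.466 and 0.468 times the median peak. At the window's edges, the stronger summit of exo-3 lay at -967 bp, but that gene was also counted through its summit 32 bp downstream. The gene brd-1 was not counted, with its closest summit 592 bp downstream.

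The genes mre-11, xpa-1 and fcd-2 had a summit in another thresholded list only. The nuclease gene mre-11 was in the pooled list and in replicate 1's own list, at 1.06 times the median peak, and replicate 2 had no ranked peak in its window. The damage binding gene xpa-1 was in replicate 1's own list, at 0.998, also with no ranked peak in replicate 2. The FANCD2 homologue gene fcd-2 was in replicate 1's own list, at 0.582, with 0.333 in replicate 2 and an IDR of 0.093 in the ranked list of the series. Replicate 1's own list thus held all 3 and replicate 2's own list none of them. Replicate 1's own list held 18 of the 44 members and replicate 2's held 15, against 12.4% and 10.8% of all genes, and 14 members were in both, against 9.56% of all genes.

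Most of the 28 members without a conservative summit had some ranked peak in the window, in a list of the series or of a replicate. A ranked peak of the series, with no limit on its IDR, had its summit in the window of 16 of the 28 (57.1%), against 33.2% of the genes without a conservative summit. The deposited signal values of these 16 ran from 14.1 at atl-1 to 76.7 at fcd-2, where the median conservative peak has 148. Their IDR ran from 0.0108 at brc-2 to 0.803 at brd-1 and atl-1. With no input sample analysed, weak binding cannot be told apart from background at these peaks. In the replicates' own ranked lists 21 of the 28 had a peak in replicate 1, from 0.0287 to 1.06 times the median peak, and 17 in replicate 2, from 0.0777 to 0.603. Of the mismatch repair genes, msh-2 gave 0.317 and 0.0777 from a ranked peak that also lies in the window of its divergent neighbour hus-1. The MutL homologue gene mlh-1 gave 0.237 and 0.536, pms-2 gave 0.199 in replicate 1 with no peak in replicate 2, and msh-6 had no ranked peak in either. Neither had rev-3, wrn-1 or nth-1. The closest conservative summit to the 28 was 592 bp downstream at brd-1, and the farthest of these closest summits was at -72812 bp, at the BLM helicase gene him-6.

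The other members without a conservative summit had values within these ranges. In homologous recombination rad-50, the ATPase of the MRE-11 complex, gave 0.0287 and 0.186 times the median peak in replicates 1 and 2. The BRCA1 partner gene brd-1 gave 0.131 and 0.122, and the RAD-51 paralogue gene rfs-1 gave 0.247 and 0.119. These lay far below rad-51 and brc-1 in both replicates. Sorting genes by the conservative list favours such an order in advance, here and for cku-70 against cku-80. In excision repair ercc-1 gave 0.496 and 0.511, but its ranked peak of the series had an IDR of 0.657. At xpc-1 the replicates gave 0.379 and 0.363, with an IDR of 0.0435. Each replicate's value is that of its own strongest ranked peak in the window, so close values need not come from the same site. The glycosylase gene ung-1 gave 0.385 and 0.603. The helicase gene dog-1, known for the stability of guanine tracts, gave 0.299 and 0.471, and rtel-1, a helicase that limits recombination, gave 0.291 and 0.121. The Ku gene cku-70 gave 0.205 and 0.135, below its partner cku-80 in both replicates. In several windows 1 replicate alone had a ranked peak. Replicate 1 alone had one at parp-1 (0.27), rev-1 (0.311), clk-2 (0.156) and atl-1 (0.154). Replicate 2 alone had one at him-6 (0.429), polq-1 (0.148) and apn-1 (0.141).

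Many C. elegans genes lie in operons, where downstream genes are expressed from the promoter of the first. The annotation used here has no operons, so spacing was used in its place: a gene whose 5′ end lies within 500 bp of the end of an upstream gene on the same strand. Of the 44 members, 20 (45.5%) were spaced in this way, against 18.7% of all genes. Of these 20, 6 had a summit at their own window (30%), against 11.5% of all genes so spaced, and of the other 24 members 10 had one (41.7%), against 13.6%. At the first gene of the run a summit was found for 8 of the 20 (40%), against 27.5%. Of these, 6 members had none of their own: msh-6, pms-2, clk-2, xpc-1, rtel-1 and wrn-1. Genes between the first gene and the member were not counted. The gene rae-1, directly upstream of ercc-1 but not first in its run, had a summit at -123 bp with a mean of 5.57 times the median peak.

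The signal at these first genes varied widely. The peak of utp-20, upstream of the Werner helicase homologue gene wrn-1, gave 6.23 and 3.98 times the median peak (mean 5.11 ± 1.60, n = 2), and that of cux-7, upstream of clk-2, is the one described above. The peak of nefr-1, before msh-6, gave 1.08 and 1.25 (mean 1.16 ± 0.118), and that of Y76B12C.6, before xpc-1, gave 0.939 and 0.865 (mean 0.902 ± 0.0523). At F25H2.12, before rtel-1, they gave 0.597 and 0.534, and at H12C20.7, before pms-2, 0.526 and 0.530. Counting a summit at the member or at the first gene of its run gave 22 of 44 members (50%), against 17.3% of all genes. That background was not matched for spacing. Only genes close behind an upstream gene can be counted through a first gene, and these were 45.5% of members against 18.7% of all genes. How far this raised the 50% was not tested. Spacing alone does not show that these genes share a transcript.

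Conservative summits also lay inside members, more than 200 bp past the 5′ end, in 7 of the 44 genes (15.9%), against 4.82% of all protein-coding genes. Members are longer, with a median gene length of 4292 bp against 2027 bp for all genes, and length was not matched; its part in the count was not tested. The strongest were in brc-1, whose introns held a peak at 6.84 and 6.69 times the median peak in replicates 1 and 2 (mean 6.77 ± 0.105, SD, n = 2), 7882 bp downstream of the 5′ end at an annotated pseudogene, and one at 5.42 and 3.06 (mean 4.24 ± 1.67), 5743 bp downstream. With its promoter, brc-1 thus carried 3 peaks, each above 3 times the median in both replicates.

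A further 68 genes of the same pathways were listed, of which 62 were found in the gene models (not mms-21, nse-3, fncp-1, pme-5, tnks-1 or uvd-1) and 23 had a conservative promoter summit (37.1%, against 13.2% of all genes). The checkpoint genes among them had 8 of 12: hpr-9, hpr-17, wee-1.3, pph-4.1, tim-1, tipn-1, clsp-1 and hsr-9. Nucleotide excision repair had 5 of 16 (uvs-1, cul-4, ddb-1, cdk-7 and mnat-1), homologous recombination 4 of 17 (dna-2, rpa-1, rpa-2 and rcq-5), base excision repair 3 of 7 (crn-1, lig-1 and pcn-1), translesion synthesis 2 of 4 (polk-1 and uev-1), crosslink repair 1 of 4 (pif-1) and the SMC class 0 of 2. The single-strand DNA binding gene rpa-2 was the strongest, at 25.6 ± 0.229 times the median peak, then hsr-9, the homologue of a mammalian break-site adaptor, at 10.6 ± 0.394, in a peak that also lies in the window of the ribosomal protein gene rps-19. The phosphatase gene pph-4.1 gave 10.5 ± 1.43, the sliding clamp gene pcn-1 gave 9.26 ± 0.312, and tim-1 gave 6.13 ± 0.0255 (SD, n = 2 each). The summit of pph-4.1 lay nearer to Y75B8A.31 and that of tim-1 nearer to Y75B8A.23, both on the opposite strand, while hsr-9 was the nearest gene to its own. The 23 had a median of 2.26 times the median peak. Among the checkpoint clamp and its loader, hpr-9, mrt-2 and hpr-17 thus had a summit and hus-1 had none.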

How the data were processed

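The authors deposited 8 peak lists of 2 biological replicates, in the ce11 build per the labels: a conservative, a pooled and a per-replicate list, each with a longer ranked list. Chromatin was sonicated to a size range of 200 to 800, per the labels, which give no unit. Neither the aligner nor the peak caller is given in the sources used here. The deposited signal value is the peak caller's own, of unstated scaling. The deposited score follows the −log10 IDR, which the authors also deposited. Not used were 4 signal columns of the ranked lists that name no sample. Depth is unknown, and no interval was formed.

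No peak ran past the end of its chromosome in the RefSeq WBcel235 sequence, and genes came from Ensembl release 115. Each conservative peak took, from a replicate's own ranked list, the signal of whichever overlapping peak had the closest summit, scaled to the replicate's median at conservative peaks (87.3 in replicate 1, 66.7 in replicate 2). Where a gene had several summits the strongest was used, and in windows without a conservative summit the strongest ranked peak. Runs of genes allow an overlap of up to 100 bp. Window assignment was tested on simulated summits. Python 3.11.15, numpy 2.4.6 and pandas 2.3.3 were used.

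The members, lists and GAGCG were chosen with earlier results of these data known. Every member was named, with values for each that has a summit; of the further genes the 5 strongest were given values.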

Additional observations from a re-analysis of the deposited data

How the results depend on the processing

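The count of 16 members ranged from 13 to 18 under 9 of the 10 alternatives, against 9.01% to 16.5% of all genes. Giving each summit only to the nearest 5′ end left 10 members and 15 further genes, losing atm-1, csb-1, lig-4, polh-1, smc-6 and xpf-1. Replicate 1's own list gave 18, adding fcd-2, mre-11 and xpa-1 and losing chk-1, and replicate 2's own list gave 15, losing smc-6. A window of 500 bp upstream lost lig-4 and smc-6 and left 5 members with a shared summit, and one of 2000 bp added rtel-1. Limiting the list to peaks at or above the median signal left 13, losing chk-1, exo-3 and smc-6. The members' median multiple of 2.68 was 2.39 to 3.15 with 1 replicate, 2.18 scaled to each replicate's own list and 3.11 with a reciprocal overlap of 50%. Scaling to each replicate's own list also lowered 11 single genes by more than their SD, brc-1 to 7.74. The alternatives for shared promoters, pathways and runs of genes, and the motifs with TTGCA, were added after seeing the data. The number of members with TTTGAA was 11 within 100 bp of the summit, against 39.2% of all promoter-proximal summits, and 2 within 25 bp, against 7.47%. With a reciprocal overlap of 50%, xpf-1 and exo-3 had no value. No paired analysis was possible because the replicates form 1 group.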

Other observations

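Introns of the excision repair gene ercc-1, which had no promoter summit, held 5 weak summits between 2631 and 15768 bp downstream, at means of 0.596 to 0.759 times the median conservative peak. Those at 4919 and 15768 bp also lay in the promoter windows of ncs-2 (-277 bp) and nubp-1 (-500 bp). The one at 7614 bp lay in an exon of the noncoding RNA gene F10G8.12. One intronic summit each was found in xpc-1 (1.62 and 1.19), rfs-1 (1.27 and 1.71) and atl-1 (0.681 and 0.695). That of rfs-1 lay 105 bp upstream of fbxl-1. A summit in an intron of rev-3 lay 459 bp upstream of Y37B11A.3, with 2.17 times the median in replicate 2 and no overlapping ranked peak in replicate 1. In brd-1, 2 overlapping peaks at 792 and 592 bp downstream matched the same replicate peaks, at 0.625 and 1.07.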
